A study of Mus musculus with 8 samples.

Results

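The 96 genes described here encode the nuclear part of mouse oxidative phosphorylation, and they were chosen by their symbols alone from the 32285 genes of the count tables. A gene was taken when its symbol begins with Ndufa, Ndufb, Ndufc, Ndufs, Ndufv, Sdha to Sdhd, Uqcr, Cox4 to Cox8 or Atp5, with pseudogenes, predicted Gm loci and Ndufa4l2 left out. The rule gathered 36 genes of complex I, 4 of complex II, 8 of complex III, 19 of complex IV, 17 of complex V, and 12 assembly factors (Ndufaf and Sdhaf genes) that help to build complexes I and II. All 96 had at least 1 UMI (unique molecular identifier, a count of a captured transcript) in some library, and they lie on 19 chromosomes. The data were droplet single-cell RNA sequencing of 8 libraries from mouse colon, 2 biological replicates in each of 4 groups. By the study's methods the sequenced cells came from C57BL/6 mice, and male animals aged 6 to 12 weeks were used. Tissue epithelium came from freshly isolated colonic crypts. Organoid epithelium was grown from crypts as an epithelium-only culture in Matrigel, a basement membrane gel. Assembloid epithelium and assembloid stroma are the epithelial and EpCAM-negative cells of a co-culture, in which organoids were packed with cultured primary colon stromal cells. By the study's methods organoid medium holds Wnt surrogate, CHIR-99021, R-spondin 1 and noggin, which keep the epithelium stem-like, and assembloids were kept without these 4 factors unless otherwise stated, whereas the labels do not name the medium of the sequenced libraries. The stroma of assembloids derives from cells expanded in culture, so it holds only the stromal cell types that survive there.

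Oxidative phosphorylation couples the oxidation of NADH and succinate to ATP synthesis in the inner mitochondrial membrane. Complexes I, III and IV pump protons as electrons pass from NADH to oxygen, complex II feeds in electrons from succinate, and complex V (ATP synthase) uses the proton gradient to make ATP. Most subunits are encoded in the nucleus and a small number in mitochondrial DNA, so both sets must be supplied together. In the colon, differentiated surface colonocytes are known to oxidise butyrate, while crypt base cells rely more on glycolysis. Several complex IV subunits also exist as paired isoforms, one used by most tissues and the other best known from muscle, lung or testis.

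Libraries held 5984 to 32932 barcodes, and after a filter of at least 500 genes and at most 10% mitochondrial UMIs per cell the sums used here held 36885678 to 187583982 UMIs. The study's methods state this filter for stromal cells and refer to that analysis for the epithelium without repeating a threshold, and it was applied here to all libraries. Epithelial cells kept here numbered 4677 and 4298 in tissue, 27159 and 6894 in assembloids and 4872 and 8034 in organoids. These are fewer than the study's for tissue and organoids and more for assembloids, so the cells compared are not the study's set. The filter kept 38.7% and 25.4% of tissue barcodes against 55.1% to 96.1% in the other libraries, and the median cell used held 3238 to 35219 UMIs. Epithelial marker genes (Epcam, Cdh1, Krt8, Krt18, Krt19, Cldn3 and Cldn7) summed to 5818 to 12169 CPM (UMI counts scaled to a common total per library) in the epithelial libraries and to 209 and 22.4 in the stromal ones. The 8 fibroblast markers summed to 7216 and 11253 CPM in stroma, to 202 and 45.3 in assembloid epithelium after fibroblast-gated cells had been removed, and to at most 0.0542 in tissue and organoids. Colonocyte markers were all detected in every epithelial library and summed to 6942 and 7371 CPM in tissue, 1542 and 2053 in assembloids and 395 and 319 in organoids. Pairs of libraries shared at most 141 barcode sequences. Values are given as CPM per library, replicate 1 before replicate 2, and since 3′ UMI counts were not divided by transcript length, levels are compared between libraries and never between genes.

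The 96 genes together took the largest share of UMIs in tissue and the smallest in stroma. In tissue epithelium they held 5.80% and 5.62% of all UMIs, in assembloid epithelium 4.68% and 4.18%, in organoid epithelium 4.28% and 4.02%, and in assembloid stroma 2.85% and 2.72%. Under this cell filter both tissue libraries lay above every cultured library and both stromal libraries lay below every epithelial one, whereas assembloid replicate 2 fell within the organoid range. Complex IV followed the same order, with 1.96% and 1.85% in tissue, 1.52% and 1.40% in assembloid epithelium, 1.22% and 1.17% in organoids and 0.814% and 0.786% in stroma. The 12 assembly factors did not, since they were highest in organoids at 0.0673% and 0.0552%, followed by tissue at 0.0450% and 0.0463%, stroma at 0.0422% and 0.0410% and assembloid epithelium at 0.0369% and 0.0329%. With 2 libraries against 2, an exact permutation test cannot give a two-sided p below 0.333, so these shares carry no test.

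**Figure D1:**
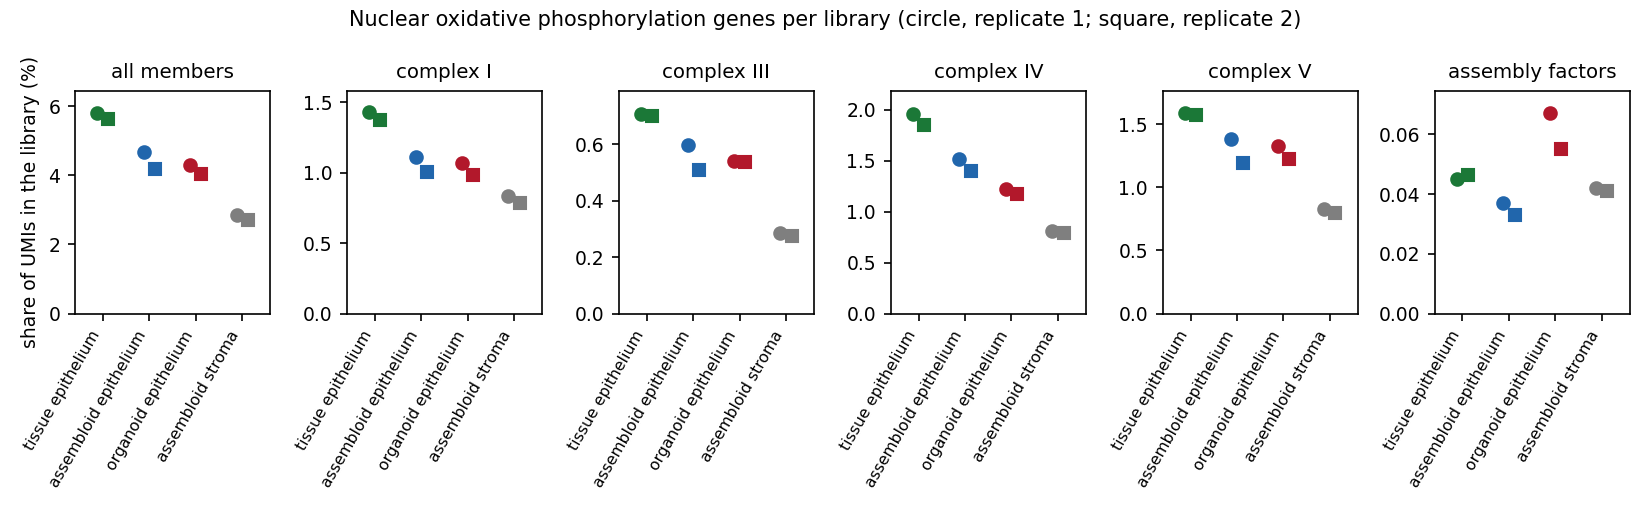
Share of a library's UMIs (%, linear axes from 0) held by the 96 genes, by complexes I, III, IV and V and by the assembly factors. Groups are tissue, assembloid and organoid epithelium and assembloid stroma, with a circle for replicate 1 and a square for replicate 2. The full set runs from 5.80% in a tissue library to 2.72% in a stromal library, while assembly factors peak in organoids at 0.0673%.

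Other quantities moved with these shares. Cytosolic ribosomal protein genes took 17.4% and 15.4% of UMIs in tissue against 24.6% to 30.6% in the other libraries, and the 13 mitochondrially encoded subunits took 5.85% and 6.36% in tissue, 3.07% and 4.38% in assembloid epithelium, 2.26% and 4.62% in organoids and 3.95% and 4.09% in stroma. Among tissue barcodes of replicate 1, the share of non-mitochondrial UMIs in the 96 genes was 7.23% in barcodes with at most 2.5% mitochondrial UMIs. It was 4.13% in those with 20% to 40% and 5.72% in those above 40%. Counting all deposited barcodes lowered the mean tissue share from 5.71% to 4.37%, beside 4.16% in assembloid epithelium and 3.93% in organoids. The libraries then overlapped, with 4.61% and 4.14% in tissue, 4.52% and 3.8% in assembloids and 4.24% and 3.62% in organoids. At up to 20% mitochondrial UMIs, tissue held 4.98% and 4.59% against 4.63% and 3.99% in assembloids, which also overlapped, and 4.25% and 3.68% in organoids. The part that the cell filter, ribosomal transcripts or cell composition play in the order of the groups was not tested, and in a library total fewer cells of a type and less RNA per cell cannot be told apart.

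Start-site sequences were available for 79 of the 96 genes in the RefSeq table (build GRCm38.p6). In the 300-base windows from 250 bases before to 50 after the start, the NRF1-type motif (GCGCA, any base, GCGC) was found for 21 genes (26.6%) against 4.6% of all 32851 promoters, and the ETS-type motif CCGGAAG for 22 genes (27.8%) against 8.86%. The YY1-type motif (AA, any base, ATGGCGG) was found for 8 genes (10.1%) against 1.36%, the ERR-type motif TCAAGGTCA for 2 (2.53%) against 0.423%, and TATAAA for 9 (11.4%) against 13.6%. Both strands were searched, 0 of the 79 genes had matches to different motifs that shared bases, and a match is a run of letters and not a shown binding site. The 250 bases before the start are printed below for a pair of complex IV isoforms that differed between the groups and for their widely used partners, 5′ to 3′ on the gene's strand, with motif matches in capitals. Cox7a1 and Cox7a2 encode alternative forms of subunit VIIa, and Cox6b1 and Cox6b2 of subunit VIb. The windows lie at chr7:30183921-30184170 (plus strand), chr9:79759854-79760103, chr7:30626115-30626364 and chr7:4753095-4753344 (each minus strand). Capitals mark the ETS-type match in Cox6b1, which begins 28 bases before the start.
Cox7a1: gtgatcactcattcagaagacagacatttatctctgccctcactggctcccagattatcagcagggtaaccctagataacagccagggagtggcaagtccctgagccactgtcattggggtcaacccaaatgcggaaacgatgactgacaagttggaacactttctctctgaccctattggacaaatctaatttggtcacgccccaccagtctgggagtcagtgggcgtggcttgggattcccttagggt
Cox7a2: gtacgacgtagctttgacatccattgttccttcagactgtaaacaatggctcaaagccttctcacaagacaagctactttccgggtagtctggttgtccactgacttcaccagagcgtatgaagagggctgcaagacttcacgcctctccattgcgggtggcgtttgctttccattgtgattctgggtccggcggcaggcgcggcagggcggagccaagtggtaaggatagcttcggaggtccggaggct
Cox6b1: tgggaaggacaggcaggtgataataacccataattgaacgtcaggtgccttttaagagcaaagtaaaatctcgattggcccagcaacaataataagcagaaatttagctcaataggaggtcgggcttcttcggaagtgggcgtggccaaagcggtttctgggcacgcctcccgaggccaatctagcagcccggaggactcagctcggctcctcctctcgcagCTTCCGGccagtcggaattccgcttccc
Cox6b2: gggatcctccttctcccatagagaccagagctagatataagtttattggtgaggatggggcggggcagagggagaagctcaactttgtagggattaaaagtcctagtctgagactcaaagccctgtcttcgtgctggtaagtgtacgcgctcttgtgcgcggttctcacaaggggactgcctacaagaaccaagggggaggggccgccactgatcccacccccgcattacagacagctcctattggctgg
The remaining windows belong to genes that differed between cultures or compartments and carry a match. Cox6a1 at chr5:115348959-115349208 holds a pair of NRF1-type matches and an ETS-type match, Atp5k at chr5:108434400-108434649 an NRF1-type match 50 bases before the start, Atp5g3 at chr2:73911327-73911576 the ERR-type letters 52 bases before it, and Sdhd at chr9:50603850-50604099 an NRF1-type and an ETS-type match, each window on the minus strand. Further matches counted above lie outside the printed bases, namely an ETS-type match of Atp5k, an NRF1-type match of Atp5g3 and an ERR-type match of Sdhd.
Cox6a1: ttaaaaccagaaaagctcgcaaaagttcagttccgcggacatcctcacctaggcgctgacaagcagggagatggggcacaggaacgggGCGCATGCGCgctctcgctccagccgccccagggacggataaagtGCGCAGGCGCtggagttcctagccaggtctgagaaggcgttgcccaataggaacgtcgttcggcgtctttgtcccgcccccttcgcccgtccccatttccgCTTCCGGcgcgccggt
Atp5k: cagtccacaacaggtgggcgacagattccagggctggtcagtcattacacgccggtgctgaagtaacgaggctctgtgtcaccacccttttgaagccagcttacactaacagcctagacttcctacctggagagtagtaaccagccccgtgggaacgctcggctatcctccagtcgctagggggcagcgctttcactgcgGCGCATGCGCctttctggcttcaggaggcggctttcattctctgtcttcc
Atp5g3: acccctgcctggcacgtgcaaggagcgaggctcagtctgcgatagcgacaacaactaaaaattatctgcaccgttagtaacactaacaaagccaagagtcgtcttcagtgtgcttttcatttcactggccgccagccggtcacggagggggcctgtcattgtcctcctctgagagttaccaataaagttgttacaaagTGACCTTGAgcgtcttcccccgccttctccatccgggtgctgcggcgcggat
Sdhd: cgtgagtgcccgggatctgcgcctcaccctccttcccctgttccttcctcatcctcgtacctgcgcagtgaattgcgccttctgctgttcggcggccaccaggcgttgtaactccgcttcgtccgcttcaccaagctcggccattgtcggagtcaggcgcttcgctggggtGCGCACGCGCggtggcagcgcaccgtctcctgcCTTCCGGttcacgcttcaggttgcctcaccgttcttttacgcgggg
For the contrast of tissue colonocytes with crypt cells described further on, the median log2 fold change was 1.99 for the 21 genes with an NRF1-type match and 2.07 for the 57 tested genes with a window but without that match, a difference given without a test.

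Several complex IV isoforms differed widely between the groups. Cox7a1 (chr7:30184144-30186078), best known as the heart and skeletal muscle form of subunit VIIa, stood at 275 and 263 CPM in tissue, 124 and 89.5 in assembloid epithelium, 6.51 and 9.0 in organoids and 2.52 and 2.76 in stroma, so that no 2 groups overlapped. Its ubiquitous partner Cox7a2 stood at 1485 and 1411, 928 and 841, 986 and 998 and 527 and 470.0 CPM in the same order, a range far narrower than that of Cox7a1. Cox7a2l, the gene of a related protein, ran the other way and was highest in stroma at 406 and 404 CPM. It had 258 and 265 CPM in tissue, 213 and 279 in assembloid epithelium and 263 and 177 in organoids.

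Cox6b2 and Cox4i2 were highest in stroma. Cox6b2 (chr7:4751792-4753094), known as the testis form of subunit VIb, reached 118 and 78.6 CPM in stroma and 6.36 and 5.10 in tissue, 8.29 and 3.72 in assembloid epithelium and 5.58 and 8.94 in organoids. Cox6b1, its common partner, was lower in stroma at 557 and 532 CPM than in tissue at 1379.9 and 1293, with 1033 and 891 in assembloid epithelium and 911 and 897 in organoids. Cox4i2 (chr2:152754173-152765037), the form of subunit IV known from lung and from oxygen-sensing cells, reached 37.2 and 18.8 CPM in stroma and at most 2.40 in any epithelial library, while the general form Cox4i1 ran from 2288 and 2287 CPM in tissue through 1438 and 1706 in assembloid epithelium and 1206 and 1135 in organoids to 1129 and 964 in stroma. For these pairs the alternative form separated stroma from epithelium in the direction opposite to that of the common form.

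Further isoforms known from muscle or testis had few UMIs in the epithelial libraries. Cox8b (chr7:140898945-140900446), a muscle form of subunit VIII, had 483 and 2941 UMIs in stroma, 49 and 41 in tissue, 28 and 1 in assembloid epithelium and 0 in both organoid libraries. Taking 3 UMIs over both organoid libraries as the most that a count of 0 allows, Cox8b was at least 100.5-fold higher in tissue than in organoids. The value for assembloid epithelium rests on replicate 1. In tissue, Cox8b had 2.65 and 3.37 CPM in goblet-gated and 0.155 and 0.164 in colonocyte-gated cells (gates are given further on). Few organoid cells passed the goblet gate, and the part of cell composition in this fold was not tested. Cox6a2, the muscle form of subunit VIa, had 14 and 13 UMIs in tissue, 11 and 12 in assembloid epithelium, 3 and 1 in organoids and 14 and 31 in stroma. Cox7b2 and Cox8c, known from testis, had at most 3 UMIs in any group and did not pass the filter on low counts, which left 94 of the 96 genes for testing. The common forms were abundant throughout, with Cox8a at 2669 and 2458 CPM in tissue against 1329.6 and 1235 in stroma and Cox7b at 1332 and 1257 against 389 and 375.

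**Figure D2:**
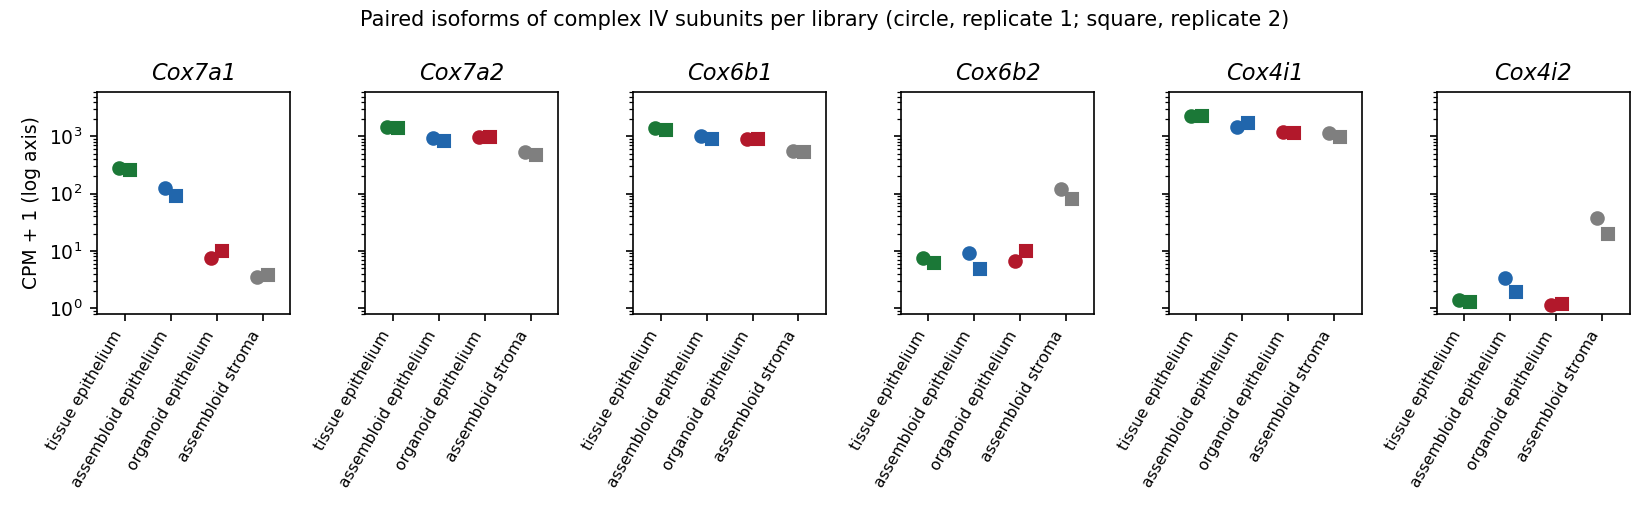
CPM plus 1 (log axis) of Cox7a1, Cox7a2, Cox6b1, Cox6b2, Cox4i1 and Cox4i2 in each of the 8 libraries, with a circle for replicate 1 and a square for replicate 2. Cox7a1 falls from 275 CPM in a tissue library to 2.52 in a stromal one, whereas Cox6b2 and Cox4i2 are high only in stroma among these 8 libraries.

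The genes for the proteolipid ring of ATP synthase also diverged. Atp5g1, Atp5g2 and Atp5g3 encode the same mature c subunit from separate loci. Atp5g3 had 579 and 589 CPM in tissue, 493 and 414 in organoids, 227 and 259.8 in assembloid epithelium and 273 and 227 in stroma, which placed both assembloid compartments below tissue and organoids. Atp5g2 had 723 and 646 CPM in stroma and 543 and 479 in tissue, 517 and 548 in assembloid epithelium and 647 and 459 in organoids, and Atp5g1 had 1026 and 1121, 694 and 731 and 1044 and 786 in the 3 epithelial groups against 476 and 407 in stroma.

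Assembloid epithelium was first compared with the tissue it models. Of 94 genes tested, Ndufaf6 and Cox4i2 rose and 6 fell (edgeR quasi-likelihood test, Benjamini-Hochberg adjusted p under 0.05), whereas 49.9% of all 19206 genes tested were called in 1 direction or the other, 26.8% higher and 23.1% lower. The median log2 fold change of the 94 genes was -0.09 beside 0.03 over all genes. With library size alone in place of factors from trimmed means (TMM), 1 gene rose and 35 fell and the median was -0.47. Libraries of both groups did not overlap for 56 of 94 genes, against 82% of all genes tested. Sdhd, the small membrane anchor of complex II, had 122 and 168 CPM in tissue and 40.4 and 60.5 in assembloids and fell with a log2 fold change of -1.16 ± 0.36 (SE, edgeR adjusted p = 0.026). Ndufaf7, a methyltransferase that acts in complex I assembly, fell from 26.2 and 26.6 to 7.99 and 10.9 CPM (-1.12 ± 0.23, edgeR adjusted p = 0.0045). Ndufa1, a small membrane subunit of complex I, fell from 667 and 616 to 288 and 219 CPM (-0.94 ± 0.28, edgeR adjusted p = 0.021). Tissue libraries were above both assembloid libraries for each of these genes. Cox7a1 and Atp5g3 fell with log2 fold changes of -0.93 ± 0.26 and -0.89 ± 0.27 (edgeR adjusted p = 0.017 and 0.026), and Cox8b, with 29 UMIs in assembloid epithelium, was the sixth. Ndufaf6, an assembly factor of complex I, rose from 14.3 and 14.5 to 21.2 and 22.2 CPM (0.97 ± 0.25, edgeR adjusted p = 0.013).

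Cox4i2 rose from 0.384 and 0.271 CPM in tissue to 2.40 and 0.928 in assembloid epithelium (2.76 ± 0.60, edgeR adjusted p = 0.006). Fibroblast markers moved with it, since all 8 were detected in both assembloid epithelial libraries at 202 and 45.3 CPM and at most 2 of 8 in tissue, while stroma held Cox4i2 at 37.2 and 18.8 CPM. The part of fibroblast transcripts in this rise was not tested. Leaving out 1 library at a time left Ndufaf7 and Cox4i2 called each time. Cox7a1 (-1.29 to -0.64 over the leave-outs) and Ndufa1 (-1.26 to -0.68) lost their calls without tissue replicate 1, tissue replicate 2 or assembloid replicate 2. Sdhd (-1.40 to -0.92) lost its call without assembloid replicate 1 or tissue replicate 2, Ndufaf6 (0.92 to 1.03) without either tissue library, Atp5g3 (-0.93 to -0.88) without any of the 4 libraries compared, and Cox8b without either tissue library or organoid replicate 2.

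Organoid epithelium was compared with tissue to place the culture without stroma. Here 6 genes rose and 7 fell of 94, where 47% of all genes tested were called, 24.2% higher and 22.8% lower, and libraries did not overlap for 48 of 94 genes against 77.7% of all genes. With library size alone 5 rose and 22 fell. Among the 12 assembly factors 5 rose and none fell, with a median log2 fold change of 0.55, while of the 82 tested subunit genes 1 rose and 7 fell with a median of -0.16. Ndufaf6 had 45.3 and 34.2 CPM in organoids against 14.3 and 14.5 in tissue (1.72 ± 0.26, edgeR adjusted p = 9.1e-04). Ndufaf4, a complex I assembly factor, had 113 and 84.8 against 40.6 and 45.7 CPM (1.46 ± 0.27, edgeR adjusted p = 0.0029), and Sdhaf1, which helps to insert iron-sulfur clusters into complex II, had 84.4 and 54.4 against 26.5 and 34.9 (1.45 ± 0.31, edgeR adjusted p = 0.0058). Every organoid library exceeded both tissue libraries for these factors. Ndufaf1 and Sdhaf2 were the other risers among assembly factors (0.90 and 0.85), and Ndufa4, a complex IV subunit once assigned to complex I, rose from 718 and 668 to 1217 and 1120.1 CPM (1.00 ± 0.29, edgeR adjusted p = 0.021).

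The subunits that fell in organoids belonged to complexes I and IV. Cox7a1 fell with a log2 fold change of -4.91 ± 0.31 (edgeR adjusted p = 1.3e-05). Ndufa1 fell from 667 and 616 to 189 and 207 CPM (-1.47 ± 0.28, edgeR adjusted p = 0.0031) and Ndufa6, an accessory subunit of complex I, from 836 and 769 to 357 and 368 (-0.91 ± 0.28, edgeR adjusted p = 0.026). Cox6c, a small subunit of complex IV, fell from 2811 and 2642 to 1194 and 1339 CPM (-0.88) and Ndufb9, an accessory subunit of complex I, from 911 and 881 to 458 and 374 (-0.86), with Cox6a2 and Cox8b at the detection limit as the last of the 7. Cox7a1, Ndufa1, Ndufaf6 and Ndufaf4 kept their calls without any 1 library. Sdhaf1 (0.87 to 1.88 over the leave-outs) lost its call without tissue replicate 1 and Ndufa4 (0.74 to 1.23) without either tissue library. Ndufaf1 (0.53 to 1.21) lost it without either tissue library or organoid replicate 1, Ndufa6 (-1.08 to -0.75) and Cox6c (-0.98 to -0.77) without either tissue library or organoid replicate 2, and Ndufb9 (-1.21 to -0.55) without any of those or assembloid replicate 1.

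Organoid and assembloid epithelium were compared directly, sharing their libraries with the preceding contrasts. Of 94 genes 11 rose and 7 fell in organoids, beside 53.3% of all genes, 24.5% higher and 28.8% lower, and libraries did not overlap for 36 of 94 genes against 76.3%. Assembly factors made up 9 of the 11 risers and none of the fallers (median 0.79 over 12), and the other 2 risers were Sdhd and Atp5g3. Ndufaf4 had 113 and 84.8 CPM in organoids and 28.7 and 27.0 in assembloids (1.70 ± 0.27, edgeR adjusted p = 0.0014). Sdhaf1 had 84.4 and 54.4 against 19.4 and 23.6 (1.59 ± 0.31, edgeR adjusted p = 0.0034), and Ndufaf1, a core factor for the membrane arm of complex I, 17.1 and 13.9 against 4.29 and 5.85 (1.5 ± 0.25, edgeR adjusted p = 0.0016). Neither culture overlapped the other for these genes. Ndufaf7 rose by 1.00, Ndufaf3 by 0.84, Sdhaf2 by 0.83, Ndufaf5 by 0.76, Ndufaf6 by 0.75 and Sdhaf3 by 0.69, all on the log2 scale.

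Cox7a1 fell with a log2 fold change of -3.97 ± 0.29 (edgeR adjusted p = 5.3e-05). Ndufa6 had 357 and 368 CPM in organoids and 793 and 685 in assembloids (-1.18 ± 0.28, edgeR adjusted p = 0.0075), and Ndufv3, an accessory subunit of the NADH-oxidising module, had 258 and 286 against 612 and 425 (-1.10 ± 0.30, edgeR adjusted p = 0.014). Cox6a1 fell from 718 and 674 to 466 and 409 CPM (-0.81 ± 0.29, edgeR adjusted p = 0.045) and Cox4i2 from 2.40 and 0.928 to 0.149 and 0.194 (-3.49), with Cox6a2 and Cox8b again at the limit. Fibroblast markers moved with Cox4i2 here too, at 202 and 45.3 CPM in assembloid epithelium against at most 0.0542 in organoids, and their part in the change was not tested. Ndufaf4, Sdhaf1, Ndufaf1, Ndufaf7, Cox7a1, Ndufa6 and Cox4i2 kept their calls without any 1 library. Sdhd (0.61 to 1.71 over the leave-outs) lost its call without assembloid or organoid replicate 1 and Ndufv3 (-1.40 to -0.71) without assembloid replicate 1 or organoid replicate 2. Atp5g3 (0.45 to 1.07) kept its call only without organoid replicate 2 and Cox6a1 (-1.09 to -0.53) only without organoid replicate 1. Cox6a2 lost its call without either organoid library or assembloid replicate 2, and Cox8b without either organoid library or assembloid replicate 1.

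**Figure D3:**
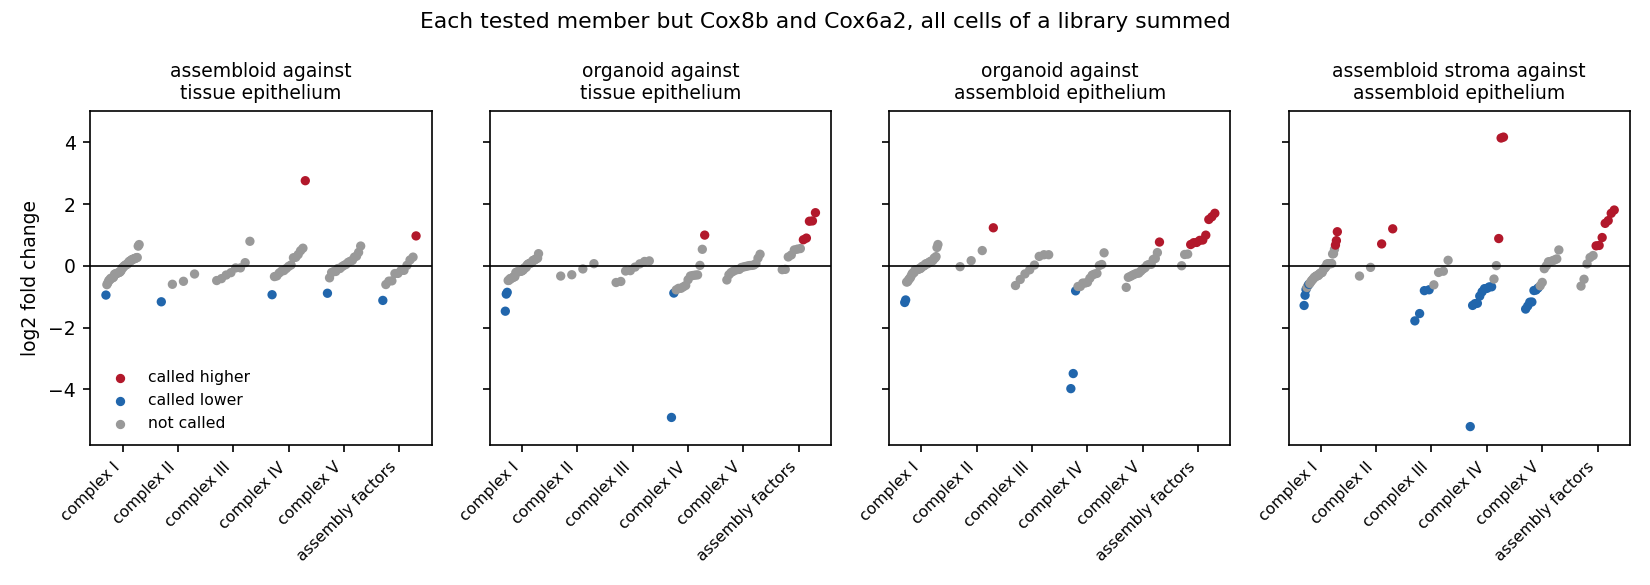
Log2 fold change of each tested gene except Cox8b and Cox6a2, grouped by complex, in the 4 contrasts of library sums. Red marks genes called higher, blue genes called lower and grey genes not called. Cox6a2 had few UMIs in every library and Cox8b few or none in epithelium. In the stromal contrast Cox8b, not drawn, had the largest log2 fold change (7.06). Assembly factors lie mostly above 0 in organoids against assembloid epithelium (9 of 12 called higher), and Cox7a1 is the lowest point in the organoid and stromal contrasts, at -4.91, -3.97 and -5.20.

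How many of the 94 genes were called depended on single libraries. For assembloids against tissue the 2 higher and 6 lower genes were 4 and 15 without organoid replicate 1, 4 and 14 without organoid replicate 2, 1 and 2 without tissue replicate 1, 1 and 1 without tissue replicate 2 and 7 and 3 without assembloid replicate 2. For organoids against tissue the 6 higher genes were 14 without organoid replicate 2, 2 without tissue replicate 1 and 3 without tissue replicate 2, and the 7 lower genes were 23 without organoid replicate 1 and 4 without organoid replicate 2 or either tissue library. For organoids against assembloids the 11 higher genes were 23 without organoid replicate 2 and 6 without organoid or assembloid replicate 1, and the 7 lower genes were 15 without organoid replicate 1, 3 without organoid replicate 2 and 4 without assembloid replicate 1. The median for organoids against tissue was -0.40 without organoid replicate 1 and 0.15 without organoid replicate 2, and that for organoids against assembloids -0.35 and 0.23. TMM normalisation also moved the level of the whole set, since with library size alone the median changed by -0.38 for assembloids against tissue, by -0.25 for organoids against tissue, by 0.12 for organoids against assembloids and by -0.16 for stroma against assembloid epithelium. No called gene recomputed with library size alone changed direction, whereas the median of organoids against assembloids changed sign, from -0.02 to 0.09.

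Assembloid stroma was set against the epithelium of the same co-culture. Of 94 genes 16 rose and 25 fell in stroma, beside 72.3% of 20577 genes tested, 38.5% higher and 33.8% lower, with a median of -0.22 against 0.15 over all genes. With library size alone 15 rose and 38 fell. Libraries did not overlap for 68 of 94 genes against 87.6%. The complexes differed in their counts. Complex III had 4 lower and none higher of 8, complex V 7 lower and none higher of 17, complex IV 10 lower and 4 higher of 17, and complex I 4 lower and 3 higher of 36, while complex II had 2 higher of 4 and the assembly factors 7 higher of 12 with none lower. Cox7a1 fell with a log2 fold change of -5.20 ± 0.29 (edgeR adjusted p = 3.3e-06). Uqcrq, a small subunit of complex III, had 385 and 363 CPM in stroma and 1622 and 1206 in epithelium (-1.78 ± 0.29, edgeR adjusted p = 7.1e-04), and Uqcr10, another small subunit of it, had 391 and 388 against 1446 and 1049 (-1.54 ± 0.29, edgeR adjusted p = 0.0016). Both stromal libraries were below both epithelial ones for these genes. Uqcrb and Uqcrc1 were the other fallers of complex III (-0.77 and -0.80). In ATP synthase, Atp5mpl, a small membrane subunit, fell from 1089 and 754 to 289 and 347 CPM (-1.40 ± 0.30, edgeR adjusted p = 0.0032) and Atp5k, the dimerisation subunit e, from 1381 and 770.3 to 349 and 453 (-1.30 ± 0.36, edgeR adjusted p = 0.011).

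Genes higher in stroma included alternative complex IV forms, complex II parts and assembly factors. Cox8b had the largest log2 fold change (7.06), with 483 and 2941 UMIs in stroma against 28 and 1 in epithelium. Cox6b2 rose by 4.14 ± 0.45 and Cox4i2 by 4.17 ± 0.54 (edgeR adjusted p = 8.6e-05 and 2.1e-04), followed by Cox7a2l (0.89). The complex II membrane anchors Sdhd and Sdhc rose by 1.20 and 0.71. Ndufaf1 had 16.0 and 15.7 CPM in stroma against 4.29 and 5.85 in epithelium (1.81 ± 0.24, edgeR adjusted p = 2.4e-04). Sdhaf4, which protects the flavoprotein of complex II during assembly, had 59.1 and 57.1 against 17.9 and 22.1 (1.70 ± 0.25, edgeR adjusted p = 4.2e-04), and Sdhaf2, which attaches the flavin, 42.7 and 41.6 against 16.5 and 17.4 (1.47 ± 0.17, edgeR adjusted p = 1.3e-04). Stroma lay above assembloid epithelium for each. Ndufaf7 rose by 1.38, Sdhaf3 by 0.92, Ndufaf4 by 0.66 and Ndufaf3 by 0.65, and in complex I Ndufa8 and Ndufb11 rose by 1.11 and 0.67 while Ndufa6, Ndufv3, Ndufs6 and Ndufs4 fell (-1.28, -0.95, -0.76 and -0.59).

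Core subunits were lower in stroma too. Cox5a and Cox5b of complex IV fell (-0.98 and -0.84), as did Atp5a1 and Atp5b, the alpha and beta subunits of ATP synthase (-0.71 and -0.78). Ndufs1, the largest iron-sulfur subunit of complex I, was not called and had 32.7 and 31.1 CPM in stroma and 41.2 and 47.6 in epithelium, Ndufv1, which binds NADH, had 80.6 and 67.6 and 98.5 and 128, and the Rieske protein Uqcrfs1 144 and 116 and 138 and 191. The flavoprotein and iron-sulfur subunits of complex II, Sdha and Sdhb, had 68.8 and 69.7 against 84.2 and 111 and 128 and 106 against 128 and 141, again without a call. Stromal tables were written by Cell Ranger 6.0.1 and epithelial ones by 7.1.0, so software version and compartment cannot be told apart. Within the assembloid epithelial libraries, processed alike, fibroblast-gated cells held 3.30% and 2.57% of UMIs in the 96 genes, beside 2.79% and 2.68% in fibroblast-gated cells in stroma. These sets were not gated alike, since cells that also passed the epithelial gate were removed in stroma and kept in the epithelial libraries. The number of lower genes was 11 without stroma replicate 1, stroma replicate 2 or assembloid epithelium replicate 1, 14 and 15 without tissue replicate 1 and 2, and 49 without organoid replicate 1, and the number of higher genes was 9 without stroma replicate 1 and 8 without assembloid epithelium replicate 1. Atp5k (-1.72 to -0.69 over the leave-outs) lost its call without stroma replicate 1 or assembloid epithelium replicate 1, Uqcrc1 (-1.09 to -0.65) without stroma replicate 2 and Cox5a (-1.27 to -0.77) without stroma replicate 2, tissue replicate 1 or assembloid epithelium replicate 2. Cox5b, Atp5a1 and Atp5b lost their calls without 5 of the 8 libraries each and Cox7a2l without 6, stroma replicate 2 and both tissue libraries among them each time, at -1.12 to -0.61, -1.0 to -0.61, -1.07 to -0.59 and 0.60 to 0.99.

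Cells were then divided by marker genes, since the groups differ in cell types. A cell passed a gate when at least 3 genes of a marker list had a UMI and the list took a set share of its UMIs, which was 0.5% for colonocytes (Krt20, Aqp8, Slc26a3, Car4, Guca2a, Ceacam20, Slc37a2, Lypd8 and Mep1a), 2% for goblet cells (Muc2, Fcgbp, Zg16, Clca1, Spink4, Tff3, Agr2 and Spdef), 0.08% for crypt cells (Lgr5, Smoc2, Ascl2, Axin2, Rgmb, Rnf43, Tnfrsf19 and Slc12a2) and 0.2% for cycling cells (Mki67, Top2a, Cdk1 and 9 others). None of the 96 genes is in a gate. The crypt class held only non-cycling cells, while cells passing both the crypt and the cycling gate counted as cycling. Colonocyte gates held 632 and 844 cells in tissue and 666 and 481 in assembloids, crypt gates 233 and 169 in tissue, 84 and 84 in assembloids and 1095 and 1920 in organoids. Only 8 and 1 organoid cells passed the colonocyte gate and 14 and 13 the goblet gate, so organoids enter the class comparisons with crypt and cycling cells only. Many cells lay near the crypt threshold, with 197 and 160 tissue cells and 121 and 111 assembloid cells within 25% of it on either side.

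Colonocyte-gated cells held the highest share of the 96 genes. In tissue they held 8.54% and 7.97% of UMIs, in comparison with 4.35% and 4.18% in goblet-gated, 3.97% and 3.84% in cycling and 3.05% and 3.01% in crypt-gated cells. In assembloids the shares were 6.22% and 5.89% for colonocytes, 4.51% and 3.86% for goblet cells, 4.15% and 3.63% for cycling cells and 3.24% and 2.53% for crypt cells. Among these 4 gates, colonocytes stood first and crypt cells last in each of the 4 libraries. In organoids crypt-gated and cycling cells were close, at 4.26% and 3.73% and at 4.19% and 3.81%, and the organoid crypt cells exceeded those of tissue and assembloids in both replicates.

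**Figure D4:**
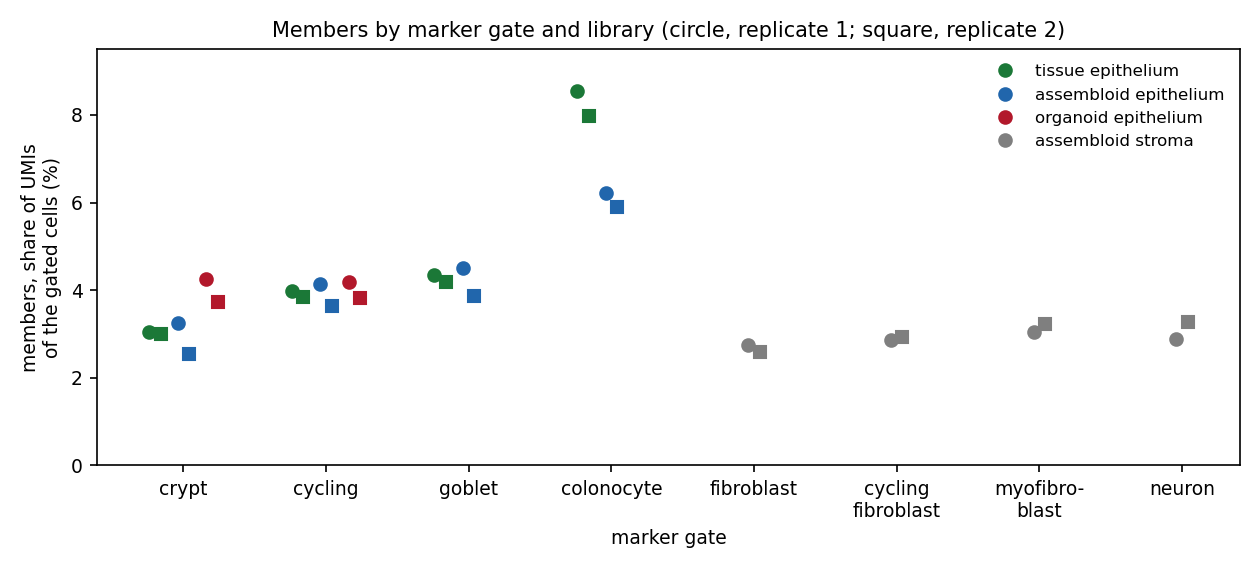
Share of UMIs (%, axis from 0) held by the 96 genes in crypt, cycling, goblet, colonocyte, fibroblast, cycling fibroblast, myofibroblast and neuron gates. Each library with at least 50 cells in the gate is drawn, with a circle for replicate 1 and a square for replicate 2. Tissue colonocytes stand highest at 8.54% and 7.97%, and crypt-gated cells of tissue and assembloids lie between 2.53% and 3.24%.

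The colonocyte difference was tested within libraries, on sums per library and class with the library as a block. In tissue 88 of 93 tested genes rose in colonocytes against crypt cells and Cox6b2 fell, where 54.5% of 15581 genes tested were called and 29% rose, and the median log2 fold change was 2.02. Every tested gene of complex I (36 of 36), complex II (4 of 4), complex III (8 of 8) and complex V (17 of 17) rose, as did 13 of 16 in complex IV and 10 of 12 assembly factors. The median was 2.25 for complex IV, 2.17 for complex III, 2.08 for complex V, 1.99 for complex I, 1.81 for complex II and 0.76 for assembly factors. The median of 2.02, computed with TMM factors, was 1.31 with library size alone, where Ndufaf2, Ndufaf4 and Sdhaf1 changed direction (-0.22, -0.22 and -0.045). As a plain ratio of CPM, 86 of 93 genes were higher in colonocytes in each tissue library. Colonocyte-gated cells held more UMIs than crypt-gated cells (medians of 19121 and 15006 against 10464 and 8466) and a lower median mitochondrial percentage (6.73% and 7.39% against 8.05% and 8.16%), whose part was not tested. With every cell thinned to 2000 UMIs, 83 genes rose and the median was 1.97.

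Cox7a1 led the colonocyte genes. It had 583 and 489 CPM in tissue colonocytes and 52.3 and 57.7 in crypt cells (4.02 ± 0.12, edgeR adjusted p = 9.2e-12), with goblet cells at 217 and 178. Ndufa6 had 1539.8 and 1313 against 343 and 289 CPM (2.88 ± 0.11, edgeR adjusted p = 2.3e-11), and Uqcrb, a ubiquinone-binding subunit of complex III, 1856 and 1678 against 432 and 436 (2.74 ± 0.10, edgeR adjusted p = 2.1e-11). Colonocytes of both libraries exceeded crypt cells of both for each. Cox5a and Cox5b rose by 2.68 and 2.67. At the low end Ndufaf2, Ndufaf4 and Sdhaf1 rose by 0.49, 0.49 and 0.66, the last 2 losing their calls without either tissue library. Ndufaf4 had 33.9 and 41.3 CPM in colonocytes and 43.8 and 42.8 in crypt cells, so its CPM did not follow that of the subunits. Ndufaf6, Sdhaf3, Cox4i2 and Cox8b were not called. Cox6b2 fell with a log2 fold change of -2.10 ± 0.43, from 12.5 and 11.8 CPM in crypt cells to 1.94 and 1.48 in colonocytes (edgeR adjusted p = 6.1e-04).

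Assembloid colonocytes showed the same order of classes. Of 93 genes 81 rose against crypt cells and none fell, beside 44.8% of all genes called and 21.8% higher, with a median of 1.78 (0.81 with library size alone). By plain CPM 70 and 81 of 93 genes were higher. Cox7a1 had 355 and 200.2 CPM in colonocytes and 44.7 and 27.8 in crypt cells (3.88 ± 0.16, edgeR adjusted p = 1.3e-10), Uqcrb 1477 and 1496 and 449.9 and 393 (2.79 ± 0.11, edgeR adjusted p = 6.8e-11) and Ndufa6 1418 and 1170.2 and 487 and 307 (2.69 ± 0.11, edgeR adjusted p = 1.3e-10). Cox7a1, Uqcrb and Ndufa6 also had the largest called rises in tissue colonocytes. Of the 12 assembly factors 4 rose, with a median of 0.19. The smallest rises were those of the complex I subunits Ndufa9 and Ndufa10 and of Sdha (0.84, 0.85 and 0.86), which changed direction with library size alone (-0.13, -0.12 and -0.11). Ndufs1 was not called, with 29.5 and 38.8 CPM in assembloid colonocytes and 65.0 and 85.5 in crypt cells, whereas in tissue it had 103 and 89.4 and 70.1 and 67.4.

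**Figure D5:**
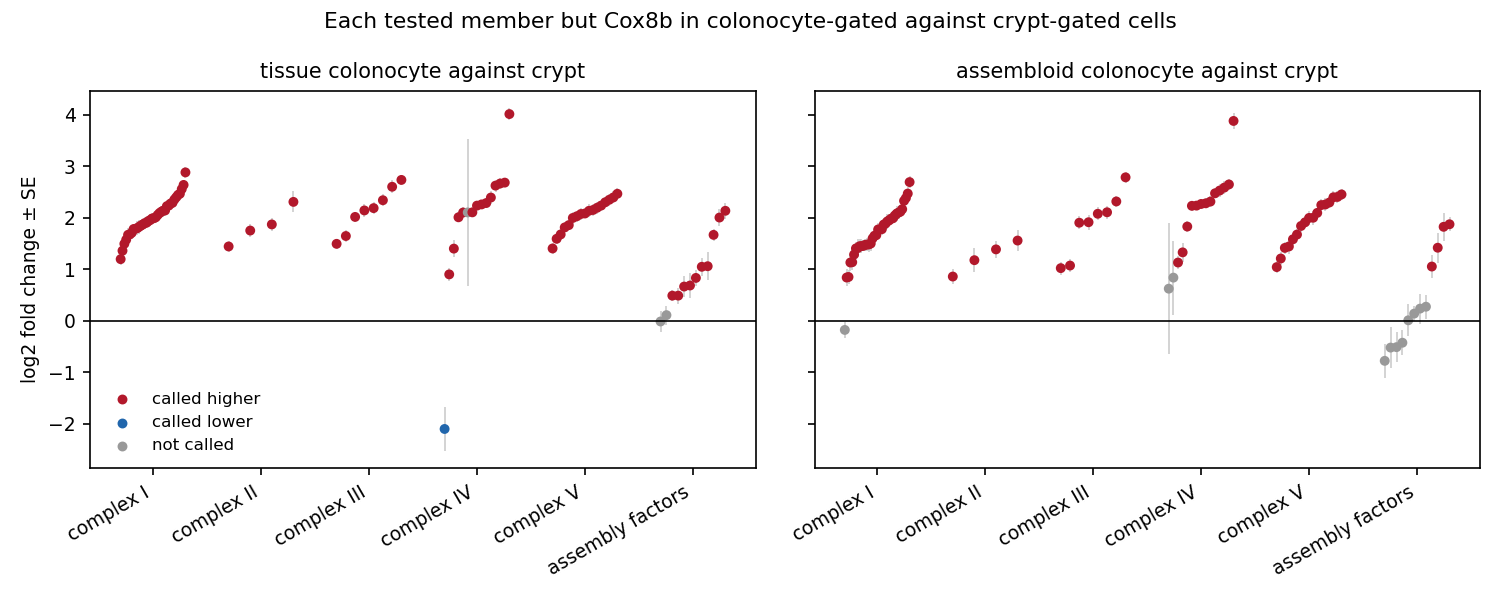
Log2 fold change with its standard error for each tested gene except Cox8b, colonocyte-gated against crypt-gated cells, in tissue (left) and assembloids (right), grouped by complex, with red for genes called higher, blue for genes called lower and grey for genes not called. The medians over all tested genes, assembly factors included, were 2.02 and 1.78, and Cox7a1 lies near 4. Assembly factors have the lowest median of the groups shown, at 0.76 and 0.19.

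The 2 colonocyte contrasts were compared by an interaction term. The difference, assembloid minus tissue, was called below 0 for 18 of 93 genes and above 0 for Cox6b2 (edgeR, adjusted p under 0.05), where 9.27% of all genes tested were called lower, 5.83% higher and 15.1% in either direction, and its median over the 93 genes was -0.19 (-0.45 with library size alone) beside -0.12 over all genes. Complex I supplied 9 of the 18, assembly factors 4, complexes II and V 2 each, complex III 1 and complex IV none. Cox6b2 was low throughout, with 4.47 and 2.35 CPM in assembloid colonocytes and 1.36 and 5.15 in assembloid crypt cells. The assembloid replicates thus went opposite ways for this gene. Ndufs1 differed by -1.37 ± 0.19 (edgeR adjusted p = 2.1e-04), and it was called without each library in turn. Ndufaf1 differed by -1.58 (-2.08 to -0.72 over the leave-outs) and kept its call only without assembloid replicate 2, and Ndufaf5 by -1.46 (-1.58 to -0.65), which kept it only without assembloid replicate 1. Sdhb, the iron-sulfur subunit of complex II, differed by -1.13, with 329.8 and 330.2 CPM in tissue colonocytes, 105 and 113 in tissue crypt cells, 136 and 189 in assembloid colonocytes and 201 and 89.6 in assembloid crypt cells. The number of lower genes was 1 without tissue replicate 1 or 2, 4 without organoid replicate 1 or 2, 3 without assembloid replicate 1 and 24 without assembloid replicate 2, and no gene was called with cells thinned to 2000 UMIs. The median was 0.15 without assembloid replicate 1, and the number of genes called above 0 was then 14, with 2 without assembloid replicate 2 and 0 without either tissue library.

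Goblet-gated cells stood between colonocytes and crypt cells. In tissue 86 of 93 genes rose against crypt cells and 2 fell (21% of all genes rose and 35.5% were called), with a median of 0.93 (0.45 with library size alone), and in assembloids 78 rose and Ndufs1 fell (17.1% of all genes rose and 33% were called), with a median of 1.10. Cox7a1 rose by 2.35 ± 0.12 in tissue and 3.72 ± 0.16 in assembloids (edgeR adjusted p = 2.9e-09 and 1.5e-09), and Ndufv3 by 1.5 and 1.77. Atp5e, the epsilon subunit of ATP synthase, rose by 1.42 in tissue and Ndufa1 by 1.77 in assembloids. Ndufaf6 and Cox6b2 were the 2 genes that fell in tissue goblet cells (-0.56 and -1.28), and Ndufs1 fell (-0.68) in those of assembloids, a call lost without assembloid replicate 2. With library size alone the assembloid counts were 50 higher and 11 lower, with a median of 0.38. Doubling the marker thresholds left 0 tissue goblet calls. Ndufaf6 lost its call in tissue without either tissue or either organoid library.

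Cycling cells were higher than crypt cells in tissue and assembloids, with smaller medians than goblet cells under TMM. With library size alone the assembloid medians were 0.45 for cycling and 0.38 for goblet cells, so that order was reversed there. In assembloids 78 of 93 genes rose (14.8% of all genes rose and 7.67% fell), with a median of 0.89 (0.45 with library size alone), and Ndufaf3 of complex I assembly led with 1.49 ± 0.27 (edgeR adjusted p = 9.7e-04, lost without assembloid replicate 2), followed by Ndufa5 and Ndufb10 (1.26 and 1.17). In tissue 68 of 93 rose (7.18% of all genes rose, 2.3% fell and 9.47% were called in all), with a median of 0.51 (0.40 with library size alone) and Ndufaf3 and Ndufv2 among them (1.01 and 0.70), but none was called without tissue replicate 1, without tissue replicate 2, with the marker thresholds halved or with cells thinned to 2000 UMIs. In organoids 6 of 93 rose (8.48% of all genes rose and 3.91% fell), namely Sdhaf4, Ndufaf4, Ndufs7, Ndufab1, Ndufaf8 and Ndufa8, by 0.41 to 0.28. That count was 0 without either organoid or either tissue library, 24 without assembloid replicate 1 and 49 without assembloid replicate 2, and it was also 0 with library size alone, where the median went from 0.18 to 0.0040, and with cells thinned to 2000 UMIs, where Sdhaf4 turned to -0.22.

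Culture was finally compared within each gate, a setting chosen after the library sums had been seen. Among crypt-gated cells, organoids exceeded tissue in 26 of 91 genes and fell below it in Cox7a1, beside 38.6% of 11825 genes called in either direction, and the median was 0.68 against 0.03 over all genes. Against assembloid crypt cells 13 were higher and Cox7a1 lower (24.6% of all genes called). Cox7a1 had 7.02 and 8.87 CPM in organoid crypt cells, 44.7 and 27.8 in assembloid and 52.3 and 57.7 in tissue crypt cells, and fell in organoids (log2 fold changes of -2.60 ± 0.30 against tissue and -2.15 ± 0.33 against assembloids) (edgeR adjusted p = 3.3e-06 and 1.7e-04). In cycling cells 5 of 92 genes rose against tissue and Cox7a1 fell (28.4% of all genes called), and 7 rose against assembloids while Cox7a1 and Cox4i2 fell (39.5% of all genes called), with log2 fold changes for Cox7a1 of -2.73 and -3.01. Cox7a1 was thus lower in organoid cells of like gates, with smaller log2 fold changes than in the library sums (-4.91 and -3.97). Sdhaf1 and Ndufaf4 rose in organoid crypt cells against tissue (1.52 and 1.22) and in organoid cycling cells (1.72 and 1.76). Ndufa6, lower in the organoid library sums, had log2 fold changes of 0.43 in crypt-gated and 0.18 in cycling cells against tissue, and neither passed the test.

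Assembloid and tissue cells of like gates differed in other genes. In colonocyte-gated cells 8 of 91 genes rose and 15 fell in assembloids (52.8% of all genes called), among them Ndufaf7, Sdhd, Ndufs1, Atp5g3 and Ndufa1, which fell with log2 fold changes of -1.35, -0.92, -0.90, -0.88 and -0.80. Cox7a1 was not called there, with 355 and 200.2 CPM in assembloid and 583 and 489 in tissue colonocytes. In goblet-gated cells 25 of 92 rose and 4 fell (48.9% of all genes called), with Uqcrq up by 1.63, Ndufv3 by 1.26 and Cox7a1 by 1.10 ± 0.25 (edgeR adjusted p = 0.0083), so Cox7a1 was higher in assembloid than in tissue goblet cells although lower in the library sums. In cycling cells 8 of 92 rose (34.2% of all genes called) and in crypt cells Uqcrq rose and Ndufa1 fell, of 91 tested (24.7% of all genes called). Uqcrq was thus higher in assembloids within the goblet, cycling and crypt gates, by 1.63, 1.45 and 1.08. In colonocyte-gated cells its CPM overlapped, at 1882 and 1641 in assembloids and 1702 and 1663 in tissue.

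The stromal classes were compared in the same way. The fibroblast gate (Col1a1, Col1a2, Col3a1, Dcn, Lum, Pdgfra, Col6a1 and Col6a2) held 5364 and 6983 non-cycling cells, and their share of UMIs in the 96 genes was 2.74% and 2.60%. Cycling fibroblasts held 2.87% and 2.92%, myofibroblast-gated cells 3.04% and 3.22% and neuron-gated cells 2.88% and 3.27%, from 129 and 111 myofibroblasts and 50 and 83 neurons. Against fibroblasts, 12 genes rose and 8 fell of 93 in cycling fibroblasts, 15 rose and 2 fell in myofibroblasts and 16 rose and 17 fell in neurons, beside the share of all genes called in either direction of 30.5%, 11.1% and 40.9%. The counts for neurons and myofibroblasts depended on the settings. With library size alone 35 genes rose and 5 fell in neurons, where the median turned from -0.04 to 0.20, and 31 rose and 2 fell in myofibroblasts. With cells thinned to 2000 UMIs 7 rose and 4 fell in neurons and 2 rose and 1 fell in myofibroblasts. In myofibroblasts Cox5a had 580.2 and 498 CPM against 423 and 305 in fibroblasts (0.51 ± 0.10, edgeR adjusted p = 0.0066), and Atp5b and Uqcrq rose by 0.50 and 0.49 while Cox6b2 and Cox7a2l fell (-0.76 and -0.54). In cycling fibroblasts Ndufaf2, an assembly factor of complex I, rose by 0.65, Ndufa5 and Cox7a2 rose by 0.46 and 0.46, and Cox4i2 fell from 43.6 and 19.2 to 22.2 and 6.86 CPM (-1.24 ± 0.18, edgeR adjusted p = 1.9e-04).

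Neuron-gated cells (chosen by markers that include Elavl4, Tubb3, Elavl3, Stmn2, Snap25 and Prph) differed from fibroblasts in several rare isoforms. Cox8b had 393 and 1641 CPM in them and at most 3.64 in fibroblasts, cycling fibroblasts, myofibroblasts, glia of replicate 1 and endothelial cells of replicate 2. Cox4i2 had 192 and 143 CPM against 43.6 and 19.2 in fibroblasts (2.28 ± 0.22, edgeR adjusted p = 2.3e-06), and Cox7a1 18.4 and 13.7 against 2.65 and 2.58 (2.36 ± 0.34, edgeR adjusted p = 8.1e-05). Neurons of both libraries lay above fibroblasts of both for these 3 genes, while glia of replicate 1 had 26.2 CPM of Cox7a1, above both neuron values. Ndufv3 and Ndufaf3 rose by 0.60 and 0.58, and Cox6b2, Ndufa3 and Sdhc fell (-0.89, -0.65 and -0.56). All 13 mitochondrially encoded subunits were called higher in these neurons, with a median of 0.49. Gates with fewer than 50 cells in a library, among them glia (62 and 49 cells) and endothelial cells (19 and 50), were not fitted.

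Other genes of the pathway were counted in the same contrasts. The cell filter bounds the summed level of the mitochondrially encoded genes, since it kept cells with at most 10% mitochondrial UMIs and so lowered the median percentage in tissue from 13.3% and 16.2% to 2.49% and 6.02%, and their calls hold for the cells kept. Of the 13 mitochondrially encoded subunits, mt-Nd5 rose and mt-Atp6 and mt-Cytb fell in assembloids against tissue. In organoids against tissue 0 were called (edgeR, 2 at an unadjusted p under 0.05). In colonocytes against crypt cells 10 rose and 1 fell in tissue and 4 rose in assembloids, with TMM factors. Their medians were 0.42 and 0.06 beside 2.02 and 1.78 for the nuclear genes. Library size alone moved the medians of the nuclear genes by -0.71 and -0.96 in these 2 colonocyte contrasts, shifts larger than 0.42 and 0.06. Such values are not given here for the mitochondrially encoded list, and tissue colonocytes had a lower median mitochondrial percentage than crypt cells. In the same tissue and assembloid contrasts the medians were 2.06 and 1.67 for glycolysis and hypoxia genes (16 and 19 of 20 rose and none fell), 1.81 and 1.47 for electron and nucleotide carriers (11 and 9 of 12 rose, and Slc25a4 fell in tissue) and 1.24 and 0.74 for tricarboxylic acid cycle enzymes (16 and 11 of 17 rose, and Idh2 fell in assembloids), beside 29% and 21.8% of all genes that rose. Biogenesis regulators had medians of -0.34 and -0.81 (3 and 2 of 15 rose, 6 and 7 fell). Of 17 tricarboxylic acid cycle enzymes, which supply NADH, 2 fell in assembloids against tissue (Idh3a, -0.93, and Ogdh, -0.78), and 1 rose and 2 fell in organoids (among them Idh2, 0.97, and Ogdh, -0.86). Of 12 carriers, Slc25a4, an ADP/ATP exchanger, rose by 2.24 in assembloids and 3.94 in organoids against tissue, and Etfdh and Coq9 fell in organoids (-1.06 and -0.63). Of 34 tested assembly factors outside the 96 genes, 3 rose and 8 fell in assembloids and 7 rose and 1 fell in organoids against tissue. In organoids against assembloids 15 rose and none fell (median 0.63), and none of the Ndufaf and Sdhaf genes fell there either. Of all genes tested, 26.8% rose and 23.1% fell in assembloids and 24.2% and 22.8% in organoids against tissue. In organoids against assembloids these shares were 24.5% and 28.8%.

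Regulators of mitochondrial biogenesis and genes of glycolysis were counted beside them. Of 15 regulators 2 rose and 6 fell in assembloids against tissue and 5 rose and 2 fell in organoids, beside 49.9% and 47% of all genes called in these contrasts. Ppargc1a, the coactivator PGC-1 alpha, fell in assembloids and organoids with log2 fold changes of -2.03 ± 0.23 and -3.46 ± 0.24 (edgeR adjusted p = 2.6e-04 and 2.4e-05). Ppargc1b had -2.27 and -1.01, and Myc rose by 2.48 in organoids. Of 21 rows for 20 glycolysis and hypoxia genes (Aldoa has 2), 20 rose in assembloids against tissue with a median of 2.27, and 16 rose and Hk1 fell in organoids with a median of 1.56. Ldha, lactate dehydrogenase A, rose by 2.03 and 1.79, Pgk1 by 2.72 and 2.28, and the hypoxia-induced mitophagy receptor Bnip3 by 6.50 and 4.53. In organoids against assembloids none of these rose and 9 fell, among them Slc2a1, the glucose transporter GLUT1 (-2.48). These counts stand beside 2 higher and 6 lower of the 94 nuclear oxidative phosphorylation genes in assembloids and 6 higher and 7 lower in organoids, all against tissue, or 35 and 22 lower with library size alone.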

How the data were processed

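Single-cell 3′ RNA sequencing (10x Genomics v3) covered 8 libraries, 2 in each of 4 groups. The authors deposited filtered count matrices of whole UMI counts per gene and cell, made with Cell Ranger (6.0.1 for stroma and 7.1.0 for epithelium per the file headers, version 6 and mm10 per the labels). Intron counting and annotation are not given in the sources used here, and 99.61% of gene identifiers were found in GENCODE M21.

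Barcodes were kept if they had 500 genes or more and no more than 10% mitochondrial UMIs (the study's filter for stromal cells, applied to all libraries), and cells passing a stromal or immune gate were left out of epithelial sums. UMI counts were added up over each library, and over each gate of a library for cells with 2000 UMIs or more. Gate thresholds were set after the distributions had been seen (0.3% for fibroblasts, 0.1% for myofibroblasts and neurons, the others as given above). No doublet caller was run, and cells passing gates of several classes were left out, with these exceptions. An epithelial cell passing the cycling and crypt gates counted as cycling, and the crypt class held only non-cycling cells. A non-cycling stromal cell passing the fibroblast gate and another lineage gate counted as that other lineage. Fibroblast-gated cells that passed the cycling gate and no other lineage gate formed the cycling fibroblasts. Sums were tested with edgeR 4.0.16 in R 4.3.3 (filterByExpr, TMM, quasi-likelihood test, Benjamini-Hochberg adjusted p under 0.05 over all genes tested), on the 6 epithelial libraries or, for stroma, on all 8. DESeq2 1.42.0 was an alternative, beside other filters, scalings and thresholds and leaving out each library. The scripts were tested on simulated data.

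Genes were named by rule: the 5 highest and 5 lowest called members of a contrast without overlap (3 and 3 for cell classes) at a mean log2 CPM of at least 3, the isoform sets, core subunits, and every member of a count of 5 or fewer. Some genes that this rule names are not reported here. Further called members and examples of the pathway lists were named after their values had been seen. The members and lists themselves were chosen with earlier results of these data known. P-values for library sums, and for cultures within a gate, rest on the spread between libraries of a group, pooled over the fit. For class contrasts the library was a block, so p-values rest on how class differences varied between libraries of a group, pooled likewise.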

Additional observations from a re-analysis of the deposited data

Results flagged for a closer look

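The interaction term of the colonocyte contrast was past its threshold for 19 of 93 genes, beside 15.1% of all 15581 genes tested (edgeR, adjusted p under 0.05, log2 scale, assembloid minus tissue). For these genes the difference between colonocyte-gated and crypt-gated cells was unequal in assembloids and tissue. Cox6b2 was the one gene called above 0, at 2.94. Its assembloid libraries went opposite ways, at 4.47 and 2.35 CPM in colonocytes against 1.36 and 5.15 in crypt cells. In tissue it had 1.94 and 1.48 against 12.5 and 11.8 CPM, so the call rested on low levels. Of complex I, Ndufs1 stood at -1.37, Ndufa9 at -0.83, Ndufv2 at -0.78, Ndufa10 at -0.72, Ndufs3 at -0.67, Ndufb7 at -0.64, Ndufb8 at -0.58, Ndufs6 at -0.58 and Ndufab1 at -0.54. Among assembly factors Ndufaf1 stood at -1.58, Ndufaf5 at -1.46, Sdhaf1 at -1.18 and Ndufaf4 at -0.92. Complex II was represented by Sdhb at -1.13 and Sdha at -0.58, complex III by Uqcrc1 at -0.62 and complex V by Atp5g3 at -0.71 and Atp5a1 at -0.55. With cells thinned to 2000 UMIs 0 genes were called, and without either tissue library 1 gene below 0 was called.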

How the results depend on the processing

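Counts below are genes called higher and lower. Other settings moved the 2 and 6 of assembloids against tissue to 7 higher by DESeq2, 1 and 35 without TMM, 10 lower at up to 5% mitochondrial UMIs, 4 and 1 at up to 20% or with all deposited barcodes, and 2 lower with cells thinned to 2000 UMIs. Within gates they were 8 and 15 (colonocyte), 25 higher (goblet), 1 and 1 (crypt) and 8 and 0 (cycling). The 7 lower of organoids against tissue became 13 by DESeq2, 22 without TMM, 15 at 5%, 4 at 20% or with all barcodes and 2 thinned, with 26 and 1 in crypt-gated and 1 lower in cycling cells. The 7 lower of organoids against assembloids became 16 by DESeq2, 14 at 5% and 4 thinned, with 1 lower in crypt-gated and 7 and 2 in cycling cells. The 16 and 25 of stroma became 10 and 45 by DESeq2, 10 and 43 without a filter on low counts, 38 lower without TMM, 9 and 54 at 5% and 13 lower at 20%. Leaving out 1 library gave 1 to 7 higher and 1 to 15 lower for assembloids against tissue, 2 to 14 and 4 to 23 for organoids against tissue, 6 to 23 and 3 to 15 for organoids against assembloids, and 8 to 20 and 11 to 49 for stroma. It gave 0 to 1 lower for assembloid colonocytes, 0 to 2 lower for assembloid goblet cells, 0 to 3 lower for tissue goblet cells, 0 to 74 higher for tissue cycling cells, 0 to 49 higher and 0 to 1 lower for organoid cycling cells, and 0 to 14 above and 1 to 24 below 0 for the interaction.

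Halved marker thresholds gave 1 lower for assembloid colonocytes, 0 higher for tissue and 2 higher and 1 lower for organoid cycling cells, 37 below 0 for the interaction and 2 higher and 1 lower for myofibroblasts and 11 lower for neurons. Doubled thresholds gave 0 for tissue goblet cells in both directions, 0 lower for tissue colonocytes and 0 higher for organoid cycling cells. Without TMM 3 were lower for tissue and 8 for assembloid colonocytes, 4 for tissue and 11 for assembloid goblet cells (50 higher), 0 higher for organoid cycling cells, 43 below 0 for the interaction, 31 higher for myofibroblasts, and 35 and 5 for neurons. At up to 20% mitochondrial UMIs, 20 were higher for tissue and 14 for organoid cycling cells and 2 above 0 in the interaction, which DESeq2 gave as 9, with 33 higher for myofibroblasts. Thinning gave 0 higher for tissue and organoid cycling cells, 0 lower for both goblet contrasts, 0 in both directions for the interaction, 2 and 1 for myofibroblasts and 7 and 4 for neurons.

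Directions changed for Cox7a1 in assembloids against tissue (1.10 in goblet-gated and 0.28 in cycling cells), for Ndufa6 in organoids against tissue (0.43 in crypt-gated and 0.18 in cycling cells) and for Uqcrc2 in assembloid cycling cells (-0.0265 with halved thresholds and -0.064 without TMM). Without TMM they changed for Ndufa9, Ndufa10 and Sdha in assembloid colonocytes (-0.13, -0.12 and -0.11) and for Ndufaf2, Ndufaf4 and Sdhaf1 in tissue colonocytes (-0.22, -0.22 and -0.045), and thinned for Sdhaf4 in organoid cycling cells (-0.22). The cause of these changes was not tested. Mean shares moved from 5.71% to 4.37% (all barcodes), 6.08% (5%), 4.79% (20%), 5.17% (thinned) and 6.08% (mitochondrially encoded genes left out of the denominator) in tissue, from 4.15% to 3.93% (all barcodes) and 4.34% (5%) in organoids, and from 2.78% to 2.90% (mitochondrially encoded genes left out) in stroma. Within gates was a setting chosen after seeing the data. With the replicate number as a block, counts were 2 and 6, 6 and 8, 11 and 7, and 16 and 25 in the order above, and no call of a named gene changed. Deviations of same-numbered libraries from their group means correlated at 0.25 (assembloid and organoid), 0.32 (assembloid and tissue) and -0.21 (organoid and tissue) over 4219 genes. With 2 libraries a group, these values cannot tell whether same-numbered libraries share an animal or a batch. Stromal classes were not refitted with 1 library, which leaves no residual degrees of freedom.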

Other observations

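The share of non-mitochondrial UMIs in the 96 genes varied with a barcode's mitochondrial percentage in each epithelial library. In tissue replicate 2 it was 6.74% at up to 2.5% mitochondrial UMIs, 5.96% at 5% to 10%, 4.0% at 20% to 40% and 5.62% above 40%. In organoid replicate 1 it was 4.36%, 3.73%, 2.20% and 3.05% in the same bins, and in stroma replicate 1 it was 2.74%, 2.84%, 1.32% and 1.66%. The tissue barcodes at up to 2.5% were shallow, with medians of 1073 and 1145 UMIs against 16138 and 6492 at 5% to 10%.

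Enteroendocrine-gated cells, too few for a fit, had shares in the 96 genes of 2.48% and 2.25% in tissue (34 and 68 cells) and 3.85% and 2.98% in assembloids (44 and 41 cells).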
